A study of Mus musculus with 3 samples.

Results

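Metallothioneins are small cysteine-rich proteins, and the mouse genes Mt1, Mt2, Mt3 and Mt4 were followed across 3 organs. The members were chosen by name, and all 4 were found by gene identifier among the 36809 genes present in every table, of which 20147 are protein-coding. Polyadenylated RNA of whole testis, brain and liver came from male C57BL/6 mice aged 11 weeks and was sequenced strand-specifically, with 1 library per organ. All 3 groups share strain, sex and age, and no treatment or engineered allele is given in the labels. The series title places the study in the transcriptome complexity of the testis, with brain and liver as the organs set beside it.

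Metallothioneins hold zinc, copper and cadmium through the sulphur atoms of their cysteines. Mt1 and Mt2 are made in many tissues, and their transcription is raised by metals through the zinc-sensing factor Mtf1 and by glucocorticoid hormone and inflammation. Mt3 is known chiefly from the brain, where it was described as a growth inhibitory factor, and Mt4 from stratified epithelium such as skin and tongue.

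The coding sequences show what the family shares, and every cysteine codon (TGC or TGT in frame) is printed in capitals. They are from GENCODE M21 transcripts on GRCm38, chromosome 8, plus strand, and each is joined from 3 exons.
Mt1: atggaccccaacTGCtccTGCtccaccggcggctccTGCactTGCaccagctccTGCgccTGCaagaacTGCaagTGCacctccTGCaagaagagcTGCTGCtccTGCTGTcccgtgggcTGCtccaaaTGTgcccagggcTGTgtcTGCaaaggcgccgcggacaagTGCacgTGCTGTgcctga
Mt2: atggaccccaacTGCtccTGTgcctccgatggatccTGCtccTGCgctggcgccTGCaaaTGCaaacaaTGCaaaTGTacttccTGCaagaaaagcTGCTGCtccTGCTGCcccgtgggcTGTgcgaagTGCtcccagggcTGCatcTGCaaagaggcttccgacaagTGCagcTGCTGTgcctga
Mt3: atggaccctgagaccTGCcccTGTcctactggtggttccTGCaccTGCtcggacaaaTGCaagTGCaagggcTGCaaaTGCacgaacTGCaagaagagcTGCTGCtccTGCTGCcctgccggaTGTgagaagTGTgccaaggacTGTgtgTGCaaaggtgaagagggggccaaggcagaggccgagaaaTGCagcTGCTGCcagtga
Mt4: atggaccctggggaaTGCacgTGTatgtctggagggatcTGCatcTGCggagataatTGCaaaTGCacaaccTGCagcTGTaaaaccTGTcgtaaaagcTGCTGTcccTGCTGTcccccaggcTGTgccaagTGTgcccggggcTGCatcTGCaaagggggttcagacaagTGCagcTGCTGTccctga
Each of the 4 sequences holds 20 cysteine codons, and 7 pairs of them stand exactly 1 codon apart, the spacing that clusters the metal ligands. Without the stop codon, Mt1 and Mt2 have 61 codons, Mt4 has 62 and Mt3 has 68, so cysteine codons make up 32.8% of Mt1 and of Mt2, 32.3% of Mt4 and 29.4% of Mt3. Mt1 and Mt2 are the closest pair, with 79.6% identical positions over the aligned coding sequences, and the other pairs lie between 63.3% for Mt3 with Mt4 and 73.2% for Mt2 with Mt4. No window of 76 bases, the read length in the labels, from the longest transcript of any member was found with 2 or fewer differences in a transcript of another gene. That covers 474 windows of Mt1, 436 of Mt2, 461 of Mt3 and 323 of Mt4, and how reads with several matches were handled is not given in the sources used here.

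The 4 genes lie side by side on chromosome 8 in a stretch of 43122 bp, in the order Mt4, Mt3, Mt2, Mt1. In the mm9 coordinates of the tables Mt4 (ENSMUSG00000031757) spans 96661104 to 96662931 and Mt3 (ENSMUSG00000031760) 96676507 to 96678048. Mt2 (ENSMUSG00000031762) spans 96696518 to 96697467 and Mt1 (ENSMUSG00000031765) 96702989 to 96704225. The gap between Mt2 and Mt1 is 5521 bp, against 18469 bp between Mt3 and Mt2 and 13575 bp between Mt4 and Mt3.

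Levels are the deposited FPKM (fragment counts scaled by transcript length and library size), a measure per length that allows genes to be set beside each other. The lower and upper bounds in the tables cover the estimation within a library, not the spread between animals, and with 1 library per organ no test was possible. Read from those bounds, fragments summed to 40.9 M in testis, 31.8 M in brain and 86.3 M in liver, with M for 1000000. The sums cover only genes at 1 locus with an estimate marked OK, so they are not the library sizes. The organ labels were checked against marker genes: neuron markers summed to 3.29 FPKM in testis, with 2091 in brain and 0.955 in liver. Spermatid markers summed to 48927, 45.0 and 0.633 FPKM in the same order, and hepatocyte markers to 36.4, 648 and 60377, of which the iron carrier Trf alone gave 641 in brain. Of the spermatid markers, 5 of 8 were called higher in brain than in liver by the rule given for the members, with Tnp1 at 13.5 FPKM in brain. That rule called 13.7% of all protein-coding genes higher in brain than in liver. The part of carried-over RNA in the members' values was not tested.

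Mt1 and Mt2 were abundant in testis and brain and scarce in liver. Mt1 stood at 211 FPKM in testis (bounds 205 to 216), 135 in brain (130 to 140) and 5.70 in liver (4.76 to 6.65). Mt2 stood at 148 FPKM in testis (144 to 153), 159 in brain (154 to 164) and 4.87 in liver (4.28 to 5.46). The bounds of testis and brain did not overlap for either gene, and liver lay far below both. In bulk tissue, fewer cells of a type and less RNA per cell cannot be told apart.

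**Figure D1:**
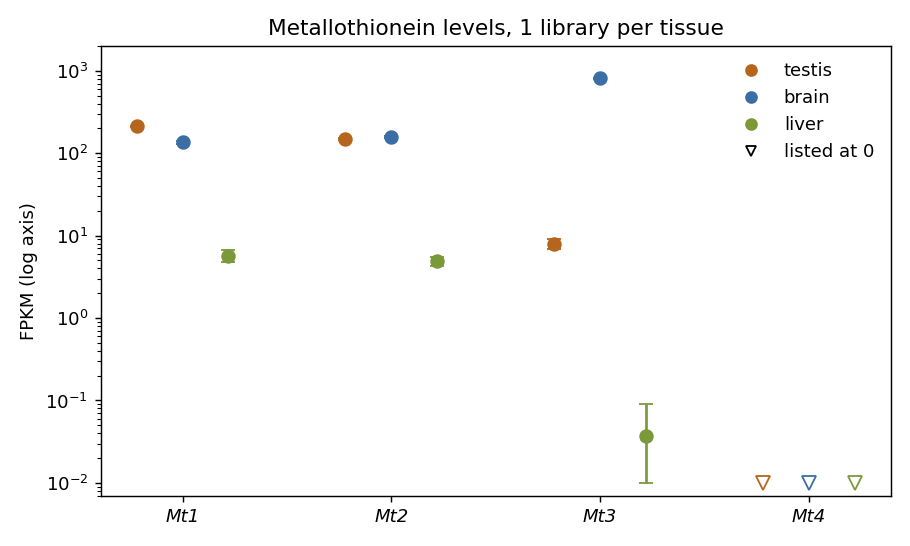
FPKM of each metallothionein in testis, brain and liver on a log axis, with 1 library per organ. Points are the deposited estimates, bars their lower and upper bounds (a lower bound of 0 is drawn to the foot of the axis), and open triangles mark values listed at 0. Mt1 and Mt2 sit near 100 FPKM or above in testis and brain and near 5 FPKM in liver, while Mt3 runs from 812 FPKM in brain to 0.0372 in liver.

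A gene was called higher or lower where log2(FPKM + 1) differed by at least 2, that is 4-fold, and the bounds did not overlap. Against liver, 3 of the 4 members were called higher in testis, and the same 3 were called higher in brain. The rule called 15.2% of all genes and 20.2% of protein-coding genes higher in testis than in liver, and 3.82% and 5.96% lower. It called 9.15% of all genes and 13.7% of protein-coding genes higher in brain than in liver, and 2.79% and 4.55% lower. These comparisons share the liver library and are given side by side only.

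Mt1 was 37.0-fold higher in testis than in liver (30.8 to 45.5 from the bounds), a log2(FPKM + 1) difference of 4.98, and Mt2 was 30.5-fold higher (26.3 to 35.7), a difference of 4.67. Both were high in brain as well, with Mt1 at 23.7-fold (19.5 to 29.4) and Mt2 at 32.6-fold (28.2 to 38.2) of liver. On the log2(FPKM + 1) scale the brain minus liver differences were 4.34 for Mt1 and 4.77 for Mt2. Among the 20147 protein-coding genes, 569, Mt1 included, differed at least as far as Mt1 in the same direction between brain and liver, and 422, Mt2 included, at least as far as Mt2. Between testis and liver these numbers were 1135 and 1294. The median difference over genes at 1 FPKM in some library was 0.88 between testis and liver and 0.58 between brain and liver. When libraries were scaled to their FPKM sums, Mt1 and Mt2 were no longer called between brain and liver, at 1.11 and 1.55, while the median of those genes moved to -1.08.

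Between testis and brain neither Mt1 nor Mt2 was called. The rule called 11% of all genes and 14.2% of protein-coding genes higher in testis than in brain, and 7.19% and 10.4% lower. Mt1 was 1.56-fold higher in testis (1.46 to 1.67), with a log2(FPKM + 1) difference of 0.64 that turned to -0.075 when libraries were scaled to the protein-coding FPKM sum. Mt2 in testis was at 93.5% of its brain level, with a difference of -0.096 that turned to 2.66 when libraries were scaled to the FPKM sum. That scaling moved the median of genes at 1 FPKM in some library to 1.96, against 0.062 as deposited, and the protein-coding sum moved it to -0.42.

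The balance of Mt1 and Mt2 differed between testis and brain by more than the bounds, and this ratio within a library does not depend on the scaling. Mt1 over Mt2 in FPKM was 1.42 in testis (1.34 to 1.51), 0.850 in brain (0.794 to 0.910) and 1.17 in liver (0.871 to 1.55). The testis library thus held more Mt1 than Mt2 and the brain library more Mt2 than Mt1. In liver the bounds include equal levels, and its ratio overlaps that of testis and that of brain.

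Mt3 had the widest range of the family and was the brain form in these libraries. It stood at 8.01 FPKM in testis (6.89 to 9.12), 812 in brain (801 to 824) and 0.0372 in liver (0 to 0.0899). The bounds of the 3 organs did not overlap. The liver value rests on 2 fragments, against 207 in testis and 20389 in brain, as implied by the bounds. Mt3 was called lower in testis than in brain, at 0.986% of the brain level (0.837% to 1.14%), a log2(FPKM + 1) difference of -6.50. Only 52 of the protein-coding genes, Mt3 among them, were as low or lower in testis against brain. Between brain and liver its difference was 9.62 on the same scale, and 3 protein-coding genes, Mt3 among them, differed as far or further on the brain side. Testis and liver differed by 3.12 on that scale, which understates the change of so low a gene.

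Because Mt3 is a gene of neurons and astrocytes in brain, markers of those cells are given beside its testis value. All 8 neuron markers were called lower in testis than in brain, and their summed FPKM in testis was 0.157% of that in brain, against 0.986% for Mt3. Over all protein-coding genes 10.4% were called lower in testis than in brain, a share that also stands beside the astrocyte count. The synaptic genes Snap25 and Syp were at 0.00926% and 0.0293% of brain. Slc17a7 was the highest of the neuron markers, at 2.60% of brain, above the 0.986% of Mt3. Its 2.61 FPKM gave most of the testis sum of 3.29. Of 10 astrocyte markers 8 were called lower, and their sum in testis was 27.7% of brain. The glutamine synthetase gene Glul, at 299.9 FPKM, gave most of the testis sum. The other members fell in a low and a higher range. The filament gene Gfap was at 0.387% of brain, the calcium-binding gene S100b at 0.960%, the glutamate transporter gene Slc1a3 at 1.57%, Aldoc at 0.460% and Ntsr2 at 0.439%, and the water channel gene Aqp4 was listed at 0 in testis. The glutamate transporter gene Slc1a2 was at 17.5% of brain (25.9 FPKM in testis), the gap junction gene Gja1 at 20.1% (13.3 FPKM) and the folate enzyme gene Aldh1l1 at 36.1% (4.70 FPKM), all above the 0.986% of Mt3. The part of such cells in the testis value of Mt3 was not tested.

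Mt4 was listed at 0 in all 3 libraries, with bounds of 0 and an estimate marked OK. The stratified epithelium in which Mt4 is known had little trace in these organs. Its 8 markers summed to 1.69 FPKM in testis, with 3.61 in brain and 0.535 in liver, and the basal keratin gene Krt14 was listed at 0 in each. The tables give no upper limit for a value of 0, so no limit is set here.

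As deposited, and with the protein-coding sum or the median ratio as scaling, the family sum was highest in brain. With libraries scaled to their FPKM sums it was highest in testis. Protein-coding genes gave 345253 of the 14084700 FPKM summed over all genes in brain. They gave 568312 of 2043320 in testis and 613096 of 1330740 in liver. The 4 genes came to 367 FPKM in testis, with 1106 in brain and 10.6 in liver, and scaled to the FPKM sum to 606, 265 and 26.9 in the same order. Mt3 made up 2.18% of that sum in testis, 73.5% in brain and 0.351% in liver. Mt1 gave 57.4% in testis, 12.2% in brain and 53.7% in liver, and Mt2 gave 40.4%, 14.3% and 45.9% in the same order. Without Mt3, which of testis and brain was higher changed with the scaling. Mt1 and Mt2 together came to 359 FPKM in testis, with 294 in brain and 10.6 in liver, as deposited. Scaled to the FPKM sum they came to 592 in testis, with 70.3 in brain and 26.8 in liver, and scaled to the protein-coding sum to 312, 420 and 8.51. As a share of all protein-coding FPKM the family held 0.0646% in testis, 0.320% in brain and 0.00173% in liver.

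**Figure D2:**
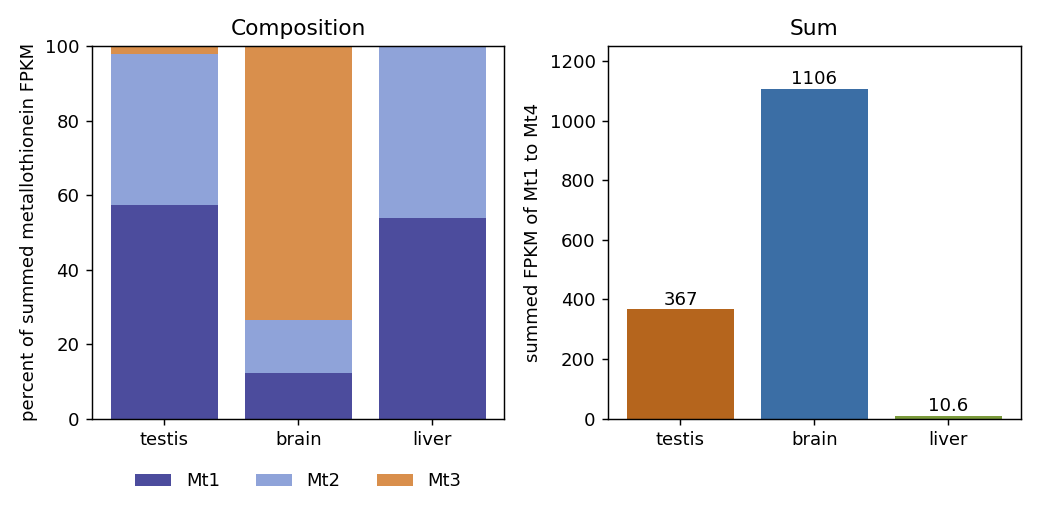
Left, the percent of summed metallothionein FPKM from Mt1, Mt2 and Mt3 in each organ; right, the summed FPKM of the 4 genes as deposited, whose order between testis and brain turns round with libraries scaled to their FPKM sums, with 1 library per organ and no error bars. Mt3 fills 73.5% of the brain sum, and Mt1 and Mt2 fill nearly all of the testis and liver sums, which come to 367 and 10.6 FPKM.

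Ranks within a library do not depend on its scaling. Among the 20147 protein-coding genes Mt1 ranked 491 in testis, 355 in brain and 4395 in liver, counting from the most abundant. Mt2 ranked 731 in testis, 289 in brain and 4838 in liver. Mt3 ranked 6210 in testis, 30 in brain and 13033 in liver. Mt1 and Mt2 were thus in the top 3.63% of genes or higher in testis and brain, and in liver they lay at the top 21.8% and 24.0%.

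**Figure D3:**
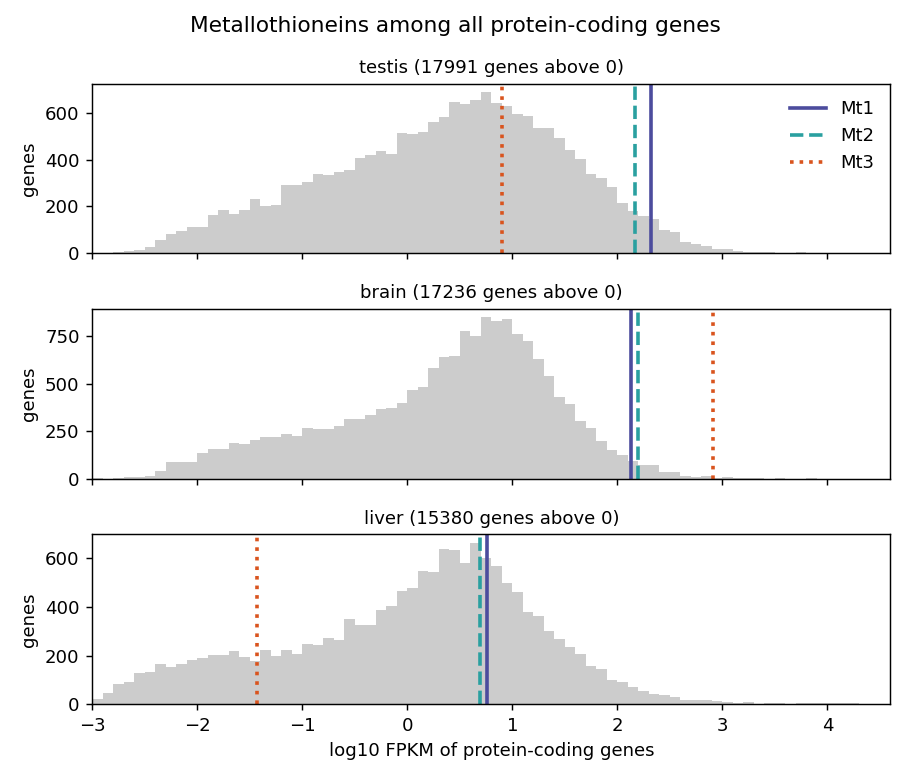
Number of protein-coding genes by log10 FPKM in each library, with lines at Mt1, Mt2 and Mt3; genes listed at 0 are left out. Mt1 and Mt2 lie in the upper tail in testis and brain and near the peak in liver, and Mt3 moves from the far upper tail in brain to the lower tail in liver.

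Mt1 and Mt2 were both high in testis and brain and low in liver, and the sequence before their starts was searched for the core of the metal response element, the site bound by Mtf1. The core was spelled TGCACNC or TGCGCNC and searched on both strands, in windows of 250 bases before to 50 after the RefSeq start on GRCm38.p6, all on the plus strand. The 250 bases before the start are printed for Mt1, Mt2 and, as the member with another pattern, Mt3, with core matches in capitals.
Mt1, chr8:94178839-94179088: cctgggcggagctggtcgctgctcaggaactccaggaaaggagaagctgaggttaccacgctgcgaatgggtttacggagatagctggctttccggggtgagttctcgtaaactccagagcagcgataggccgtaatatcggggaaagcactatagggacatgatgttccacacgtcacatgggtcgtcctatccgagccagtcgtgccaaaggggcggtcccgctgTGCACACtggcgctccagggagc
Mt2, chr8:94172368-94172617: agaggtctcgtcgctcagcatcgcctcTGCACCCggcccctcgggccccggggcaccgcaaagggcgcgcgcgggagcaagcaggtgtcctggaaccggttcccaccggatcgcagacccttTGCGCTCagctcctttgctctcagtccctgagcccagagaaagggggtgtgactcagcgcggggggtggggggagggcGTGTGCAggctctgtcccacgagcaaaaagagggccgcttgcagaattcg
Mt3, chr8:94152357-94152606: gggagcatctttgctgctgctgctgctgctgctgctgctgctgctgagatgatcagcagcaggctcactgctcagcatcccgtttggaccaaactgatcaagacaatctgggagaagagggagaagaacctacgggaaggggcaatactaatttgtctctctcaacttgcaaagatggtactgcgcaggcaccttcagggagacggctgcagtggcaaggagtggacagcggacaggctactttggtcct
With the 50 bases after the start included, Mt1 held 3 cores, Mt2 held 4, and Mt3 and Mt4 held 1 each. Of 32851 RefSeq windows of that length 25.7% held at least 1 core, 1.97% at least 3 and 0.517% at least 4. These windows were not matched for GC, which was 60.7% in Mt1, 67.7% in Mt2, 56% in Mt3 and 60.3% in Mt4. The counts of the members also depend on the start taken, as the cores before the TATA box below show. The GC box GGGCGG, which 35.7% of windows held, was found at 3 places in Mt1, where 1 of them shares a base with a core, and in none of the others. The antioxidant core TGACNNNGC was found at 1 place in Mt2, against 12.4% of windows. The E-box CACGTG was found in none of the 4 windows, against 7.15% of all windows.

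In Mt1, Mt2 and Mt3 the RefSeq start and that of the longest transcript lie upstream of a TATA box, spelled TATAAA, in that transcript's first exon. On GRCm38 the boxes begin at 94179210 in Mt1, 94172753 in Mt2 and 94152713 in Mt3. Other annotated transcripts start within or after the box, at 94179211 and 94179241 in Mt1, 94172860 in Mt2 and 94152746 in Mt3. Which start was used in these libraries was not tested. The box begins 121 bases after the RefSeq start in Mt1, 135 after it in Mt2 and 106 after it in Mt3, and 30 bases before it in Mt4. The motif was held on either strand by 13.6% of the RefSeq windows, which end 50 bases after the start and so do not reach the boxes of Mt1, Mt2 and Mt3. The 200 bases before this box held 5 cores in Mt1, 5 in Mt2, 3 in Mt3 and 1 in Mt4. Cores nearest the box lay 23 bases before it in Mt1, 24 in Mt2, 20 in Mt3 and 61 in Mt4. Of 1116 RefSeq windows with a TATA box and 200 bases before it, 11.0% held at least 1 core there, 0.179% at least 3 and none 4. Their boxes lie within 50 bases of the RefSeq start, as in Mt4 and not as in the other 3 members, so the shares are no matched background for Mt1, Mt2 and Mt3. A match of letters is a description and not a bound site.

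Of the regulators of Mt1 and Mt2, Mtf1, the zinc-sensing activator, was higher in testis. It stood at 40.8 FPKM in testis (38.9 to 42.8), 4.54 in brain (3.94 to 5.13) and 2.94 in liver (2.58 to 3.30). Its bounds in testis lay above those of both other organs. The glucocorticoid receptor gene Nr3c1 ran the other way, at 0.841 FPKM in testis, with 9.10 in brain and 6.38 in liver, and was called lower in testis against both. Sp1, which binds GC boxes, was at 6.95, 4.83 and 21.2 FPKM in testis, brain and liver and was not called, nor was the cytokine-signal factor Stat3, whose estimates were not marked OK. Over the 6 regulators the median difference was -0.33 between testis and brain, -1.14 between testis and liver and -0.19 between brain and liver, against medians of 0, 0.23 and 0.30 over all protein-coding genes.

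Zinc exporters of the ZnT family, which lower cytosolic zinc, had no common direction between testis and brain. Of 10 genes 2 were called higher and none lower in testis than in brain, 4 were higher and 1 lower in testis than in liver, and 1 was higher and none lower in brain than in liver. The shares called higher over all protein-coding genes were 14.2%, 20.2% and 13.7% in these comparisons, and those called lower 10.4%, 5.96% and 4.55%. Over 10 genes nothing about the family is read from the counts. The plasma membrane exporter gene Slc30a1 was at 27.7 FPKM in testis, with 5.22 in brain and 4.63 in liver, high in testis alone. Slc30a3, the exporter that loads synaptic vesicles with zinc, was at 17.8 FPKM in testis, with 7.88 in brain and 0.0620 in liver. Slc30a4 was at 32.0 FPKM in testis, with 8.09 in brain and 1.98 in liver, with estimates not marked OK in brain and liver. Slc30a10, a manganese exporter of the family, was at 0.00418, 1.73 and 8.78 FPKM, and Slc30a9 at 20.96, 49.7 and 16.6, in testis, brain and liver. The list medians in that order of comparisons were -0.093, 0.23 and 0.15.

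Zinc importers of the ZIP family, which raise cytosolic zinc, showed no common direction. Of 14 genes 1 was called higher and 2 lower in testis than in brain, and 3 higher and 2 lower in testis than in liver. Between brain and liver 5 were called higher and 1 lower. Over all protein-coding genes the shares called higher were 14.2%, 20.2% and 13.7% in these comparisons, and those called lower 10.4%, 5.96% and 4.55%. Over 14 genes nothing about the family is read from the counts. Slc39a6 was at 20.9 FPKM in testis, with 7.23 in brain and 0.817 in liver. Slc39a14, the importer that the liver uses in inflammation, was at 0.887 FPKM in testis, with 6.42 in brain and 21.8 in liver, with a testis estimate not marked OK. Slc39a12, a brain importer, was at 0.913, 10.7 and 0.0177 FPKM in testis, brain and liver, and only its brain estimate was marked OK. Slc39a7, an importer of the secretory pathway, was at 14.5, 33.7 and 24.3 FPKM in the same order and was not called. Slc39a13 was at 25.1, 9.28 and 1.92 FPKM, with a liver estimate not marked OK. The list medians were -0.25, -0.20 and 0.24.

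Of 14 copper genes none was called in either direction between testis and brain, with differences of up to 1.82 for Commd1. Against liver 1 was called lower in testis and 3 lower in brain. The shares called lower than in liver over all protein-coding genes were 5.96% and 4.55%. Between testis and brain 14.2% were called higher and 10.4% lower. The plasma copper protein gene Cp was at 2.59 FPKM in testis, with 4.39 in brain and 248 in liver. The copper importer gene Slc31a1 was at 4.83, 3.43 and 19.5 FPKM, and Ccs, the chaperone that gives copper to Sod1, at 40.2, 12.8 and 77.0 in the same order. Sod1 itself was at 252 FPKM in testis, with 248 in brain and 630 in liver and was not called. Cox17, a copper chaperone of mitochondria, was at 65.3, 128 and 51.9 FPKM, with a liver estimate not marked OK. The list medians were 0.14, -0.30 and -0.32.

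**Figure D4:**
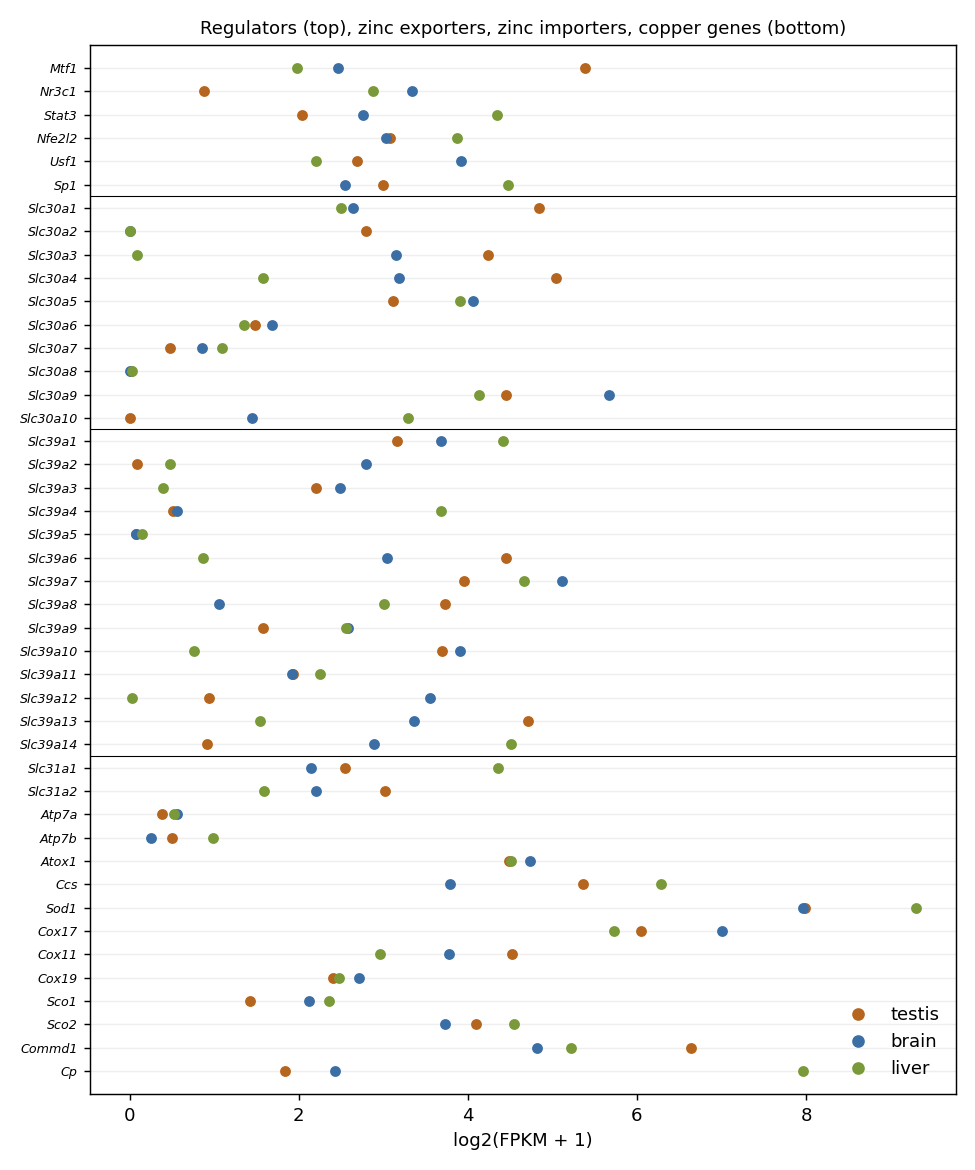
Level on log2(FPKM + 1) of each regulator, zinc exporter, zinc importer and copper gene in testis, brain and liver, with 1 library per organ. Mtf1 and Slc30a1 are highest in testis, at 40.8 and 27.7 FPKM, and Cp stands out in liver at 248 FPKM.

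Tesmin (Mtl5), named for a metallothionein-like motif but not a member of the family, was far higher in testis than in the other 2 libraries. It stood at 41.8 FPKM in testis, with 0.0139 in brain and 0.0756 in liver, and was called higher in testis against both.

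Genes that answer to the same hormone and inflammatory signals as Mt1 and Mt2 were counted next. Of 10 genes raised by glucocorticoids, 2 were called lower in testis than in brain, Tsc22d3 (8.24 FPKM in testis, 52.5 in brain, 26.7 in liver) and the kinase gene Sgk1 (0.997, 45.4 and 4.50). Between brain and liver 2 were called higher and 1 lower, the lower one being Errfi1, a feedback inhibitor of growth factor receptors, at 2.75 FPKM in testis, with 6.01 in brain and 175 in liver. Between testis and liver 1 was higher, the clock gene Per1 at 10.8 FPKM in testis, with 6.68 in brain and 0.587 in liver, and 2 were lower. The median differences were -1.26 between testis and brain, -1.07 between testis and liver and 0.50 between brain and liver. Over all protein-coding genes 14.2% were called higher and 10.4% lower in testis than in brain. The shares were 20.2% and 5.96% for testis against liver, and 13.7% and 4.55% for brain against liver. They stand beside the counts of both lists. Of 12 acute phase genes, plasma proteins that the liver makes, 11 were called lower in testis than in liver and 11 in brain than in liver, with medians of -6.86 and -7.20. The iron hormone gene Hamp was at 0.694 FPKM in testis, with 0.644 in brain and 2796 in liver, and the fibrinogen chain gene Fgb at 0.950, 0.549 and 4031. Against brain, 2 were called higher in testis, Hp at 5.35 FPKM and the iron-carrier binding gene Lcn2 at 211, against 0.451 and 3.03 in brain.

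The genes around the cluster differed in pattern. Of the 6 other protein-coding genes within 200 kb of the cluster that are described here, 4 were called higher in testis than in liver. In brain 3 were called higher than in liver, and 1 was higher and 1 lower in testis than in brain. The shares over all protein-coding genes were 20.2%, 13.7%, 14.2% and 10.4% in that order. Over 6 genes nothing about the region is read from the counts. On the Mt4 side, Bbs2, a gene of the ciliary BBSome, was at 12.8 FPKM in testis, with 7.35 in brain and 0.672 in liver. On the Mt1 side, Nup93, a nuclear pore gene, was at 11.3, 4.29 and 1.31 FPKM. Nudt21, a factor of messenger 3' end cleavage, was at 112 FPKM in testis, with 13.1 in brain and 9.38 in liver, and the G protein gene Gnao1 at 20.1, 263 and 0.0230. Gnao1, like Mt3, was high in brain and lowest in liver, and Mt4 between them was listed at 0 throughout. Ogfod1 was at 1.77, 9.33 and 1.07 FPKM, and the kidney salt transporter gene Slc12a3 was at 0.115 and 0.0127 FPKM in testis and brain and was listed at 0 in liver.

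**Figure D5:**
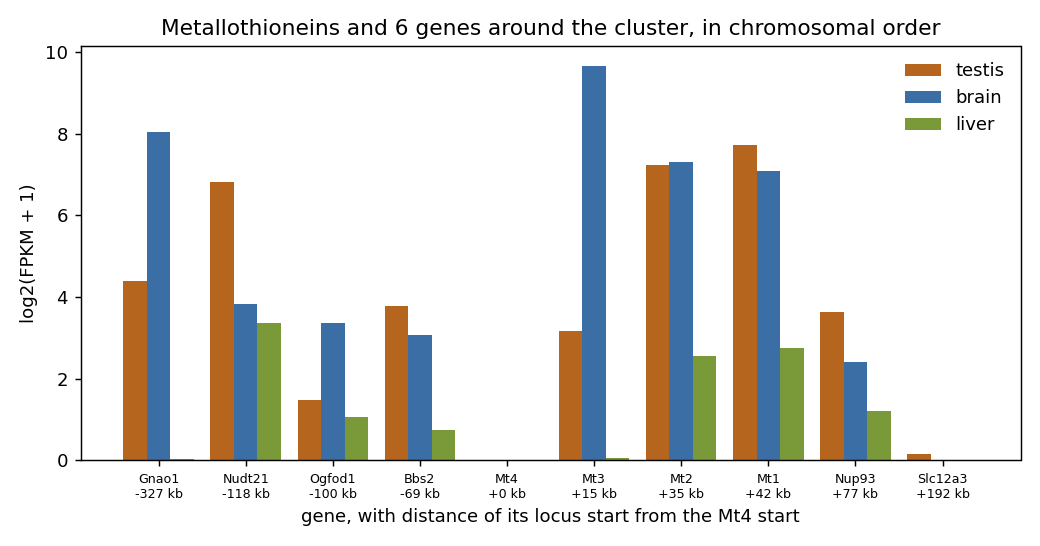
Level on log2(FPKM + 1) in testis, brain and liver of the metallothioneins and the 6 described protein-coding genes within 200 kb of them, in chromosomal order, with the distance of each locus start from that of Mt4. Mt1 and Mt2 are high in testis and brain, Mt3 in brain, Mt4 is listed at 0, and the neighbours differ among themselves, with Nudt21 highest in testis and Gnao1 highest in brain.

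The genes most like each member were taken by the smallest distance between log2(FPKM + 1) values, each gene centred on its own mean, over the 3 libraries and 8554 protein-coding genes at 10 FPKM or more in some library. For Mt1 they were Bex4, Gm1673, Kifap3, Myl4 and Dnajc27, at distances of 0.191 to 0.288. For Mt2 they were Cds1, Arc, whose estimates were not all marked OK, Fbxo44, Abhd8 and Car2, at 0.0865 to 0.260. Mt2 itself was 18th in order of likeness to Mt1, at 0.522, and Mt1 was 16th for Mt2. For Mt3 they included Ndrg4, the synaptic calmodulin-binding gene Nrgn, the kinase subunit gene Prkar1b and Tceal3, at 0.861 to 1.14. Ndrg4 stood at 4.22 FPKM in testis, with 347 in brain and 0.0226 in liver. With a pseudocount of 0.1, none of the 5 for Mt1 or for Mt2 stayed among the nearest 5, and 3 of 5 did for Mt3. Without centring none stayed for Mt1 or Mt2 and 4 of 5 did for Mt3. These distances describe 3 libraries, and many genes share so short a profile.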

How the data were processed

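Reads were processed by the authors with TopHat 1.4.0, Bowtie 0.12.5 and Cufflinks 2.0.0 on mm9, per the submitters' processing notes. Gene annotation and filters are not stated in the labels or headers. The deposited tables give FPKM per gene with a lower and an upper bound, per the file headers, whose level is not stated. Identifiers at several loci (12) were summed. Symbols and classes came from GENCODE M21 by identifier, matching 31837 of 36809. Table starts were shifted by 1, after which 37 of 37 mitochondrial genes had reference coordinates. Fragments were read as the square of 2 times FPKM over the upper half-width. That gave whole numbers within 0.1 for 69.6% of testis, 69.6% of brain and 69.5% of liver values under 20 fragments, so they are approximate.

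No test was run, since each organ has 1 library. Calls used log2(FPKM + 1), which understates low genes. The size rule was run on a copy of the brain library with planted changes larger than the cut and no noise. Its outcome was fixed in advance, so it checks the code only, not variation between libraries or low genes. The 16 lists held 136 entries, with 132 found under their symbol, 1 under an older name and 3 unmatched. Members and lists were chosen with earlier results of these data known. Named were all members, the 3 most abundant and the 3 most different genes of each list, the nearest 5 genes and the neighbours within 200 kb; 1 of the nearest genes and 1 neighbour are not reported here. Of the 59 list genes so named, those of marker lists that no result turns on are given only as list sums. The astrocyte markers, Slc17a7 and Krt14 were named after their values were seen. Promoters were from RefSeq (GRCm38.p6) and matched 4 of 4 members. Alignments used Biopython 1.88, other steps Python 3.11.15, numpy 2.4.6 and pandas 2.3.3.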

Additional observations from a re-analysis of the deposited data

How the results depend on the processing

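Of 81 values for the members under 9 alternatives 76 kept their direction and call. The filter at 1 FPKM and the use of estimates marked OK could not change Mt1, Mt2 or Mt3, which pass both. Leaving out the bounds or taking 2-fold could change a call but not a difference. The count of 76 is therefore no measure of how stable the members are. When libraries were scaled to their FPKM sums, Mt1 and Mt2 were called higher in testis than in brain, at 3.39 and 2.66, the second against its reported sign, and lost their brain minus liver calls, at 1.11 and 1.55. With the protein-coding sum Mt1 was at -0.075 for testis minus brain. Protein-coding genes gave 345253 of the 14084700 FPKM summed over all genes in brain. They gave 568312 of 2043320 in testis and 613096 of 1330740 in liver. The cause was not tested. Mt3 ranged from -7.19 to -3.78 for testis minus brain, from 2.89 to 7.41 for testis minus liver and from 7.48 to 14.07 for brain minus liver, and kept its calls throughout.

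Numbers of genes called depended on the pseudocount, fold and scaling. For testis minus brain, lower genes numbered 4296 with a pseudocount of 0.1, and higher and lower ones 6910 and 5036 with 0.01, 9433 and 568 with the FPKM sum, and 6486 and 5131 at 2-fold. For testis minus liver they numbered 8748 and 2152 with a pseudocount of 0.1, 10456 and 2565 with 0.01 and 9032 and 2565 at 2-fold, and lower ones 2155 with the FPKM sum. For brain minus liver, higher ones numbered 6139 with a pseudocount of 0.1 and 5350 with the protein-coding sum, and higher and lower ones 7897 and 1854 with 0.01, 930 and 6296 with the FPKM sum, and 7117 and 1786 at 2-fold. The 44 regulator, zinc and copper genes called numbered 7, 13 and 10 as reported for testis minus brain, testis minus liver and brain minus liver. They numbered 18, 21 and 18 at 2-fold, and 19 for testis minus brain and 23 for brain minus liver with the FPKM sum. The 22 glucocorticoid and acute phase genes called for testis minus brain numbered 4 as reported, 8 with either smaller pseudocount and 9 at 2-fold. All were size rules with no replicate check. No paired analysis was possible because each organ has 1 library.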

Other observations

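Lcn2, which binds bacterial iron carriers, was the only 1 of the 12 acute phase genes called higher in testis than in liver. It was at 211 FPKM in testis, with 3.03 in brain and 2.75 in liver, which in testis is the level of Mt1. The red cell genes Hba-a1 and Hba-a2 were at 3.53 and 3.06 FPKM in testis, 152 and 124 in brain, and 52.9 and 43.0 in liver. The blood marker list, of which 4 of 6 entries matched, summed to 13.5 FPKM in testis, with 276 in brain and 137 in liver. Of these sums Alas2 gave 6.91 in testis and 41.2 in liver, where its estimates were not marked OK. The part of blood in the metallothionein levels was not tested.

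Sertoli cell markers summed to 71.8 FPKM in testis, with 119 in brain and 0.292 in liver, where Cldn11, also a myelin gene, gave 114 of the brain sum. Leydig cell markers summed to 441, 1.67 and 9.28 FPKM, and spermatocyte markers to 2311, 16.7 and 0.607, in testis, brain and liver. Insl3 gave 299 of the Leydig cell sum in testis, with a lower bound of 0 and an estimate not marked OK. The cells that hold Mt1, Mt2 and Mt3 in testis were not resolved in these whole-organ libraries.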
